A study of Rattus norvegicus with 8 samples.

Results

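Organic ion and drug transporters are the carriers and pumps through which the kidney takes up, exchanges and secretes organic anions, organic cations, drugs and hormone conjugates. The genes described here were chosen by symbol alone: every Slc22a, Slco, Slc47a, Abcb, Abcc and Abcg gene that the array's annotation pairs with a probe set of a single symbol. This rule found 52 genes with 69 probe sets, of 14217 genes measured, and each gene was represented by its probe set with the highest mean over the 8 arrays. A symbol rule also takes in genes that do not move drugs. Abcc8 and Abcc9 are regulatory subunits of potassium channels, Abcg1, Abcg5 and Abcg8 move sterols, several Abcb genes act in mitochondria or lysosomes, and Slc22a17 is a receptor for lipocalins. Of the 52 genes, 18 had a mean log2 level under 4 over the 8 arrays, a level at which probe sets carry little signal, and they are called dim below.

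The kidneys came from female Sprague-Dawley rats aged 29 weeks that had been fed a formulated diet low in silicon (Si) for 26 weeks. The Si deplete group took in 0.17 mg of Si per kg of body weight daily, and the Si replete group, which received orthosilicic acid in its drinking water, took in 4.1 mg of Si per kg of body weight daily. Each group had 4 arrays, 1 rat per array, made from ground whole left kidney, and the comparison addressed which genes, transporters among them, differ in the kidney when dietary Si is low. All levels are log2 values, and a difference is always Si deplete minus Si replete, so that a difference of 1 is a doubling.

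In the proximal tubule, anion transporters of the Slc22 family on the basolateral membrane exchange blood-borne anions for dicarboxylates, and efflux pumps of the Abcc and Abcg families and other carriers on the brush border pass the substrates into urine. Organic cations enter through Slc22a2 and leave through the proton exchanger Slc47a1. The organic anion transporting polypeptides, encoded by Slco genes, carry larger amphipathic anions such as bile acids, steroid sulfates, thyroid hormones and prostaglandins.

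The tissue carried the markers of its label. All 10 proximal tubule markers listed were measured, with a mean log2 level of 11.87 to 12.39 in the Si deplete and 12.14 to 12.43 in the Si replete kidneys, while the 3 measured adrenal cortex markers were all dim. The kidney of Si deplete replicate 1 stood apart from the others: the first principal component, with 42.1% of the variance, placed it at 64.0 and the other 7 arrays between -25.9 and 19.2. It was the lowest of the 8 arrays in 16 of the 52 transporter genes and the highest in 8. Array medians lay between 3.85 and 3.92 in the Si deplete and between 3.80 and 3.84 in the Si replete kidneys.

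None of the 52 genes passed limma at an adjusted p under 0.1, against 0.204% of all 14217 genes (0.169% higher and 0.0352% lower in Si deplete kidneys; of all 31042 probe sets, 0.113% and 0.0387%), and their adjusted p-values ran from 0.145 to 0.999. At an unadjusted limma p under 0.05, 5 genes had a higher level in Si deplete kidneys (9.62%, against 10.5% of all genes) and 7 a lower level (13.5%, against 7.95%). The 12 genes were Slco3a1, Slco2b1, Abcc2, Abcc4 and Abcc5 with higher values, and Slco1a6, Slc22a24, Slc22a25, Slc22a13, Slc47a1, Abcb6 and Abcb11 with lower values. The share with a higher level was close to the background. When any 1 array was left out, these counts ran from 2 (without Si replete replicate 2) to 5 higher and from 2 (without Si replete replicate 1) to 10 lower. The groups did not overlap in 6 genes, 3 higher and 3 lower (5.77% in each direction, against 6.45% and 5.49% of all genes). Over the 52 genes the median log2 difference was -0.07, with 20 higher and 32 lower values, beside a median of 0.00 over all genes. Without Si deplete replicate 1 the median was -0.01, with 25 higher and 27 lower values. In whole tissue, fewer cells of a type and less RNA per cell cannot be told apart.

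**Figure D1:**
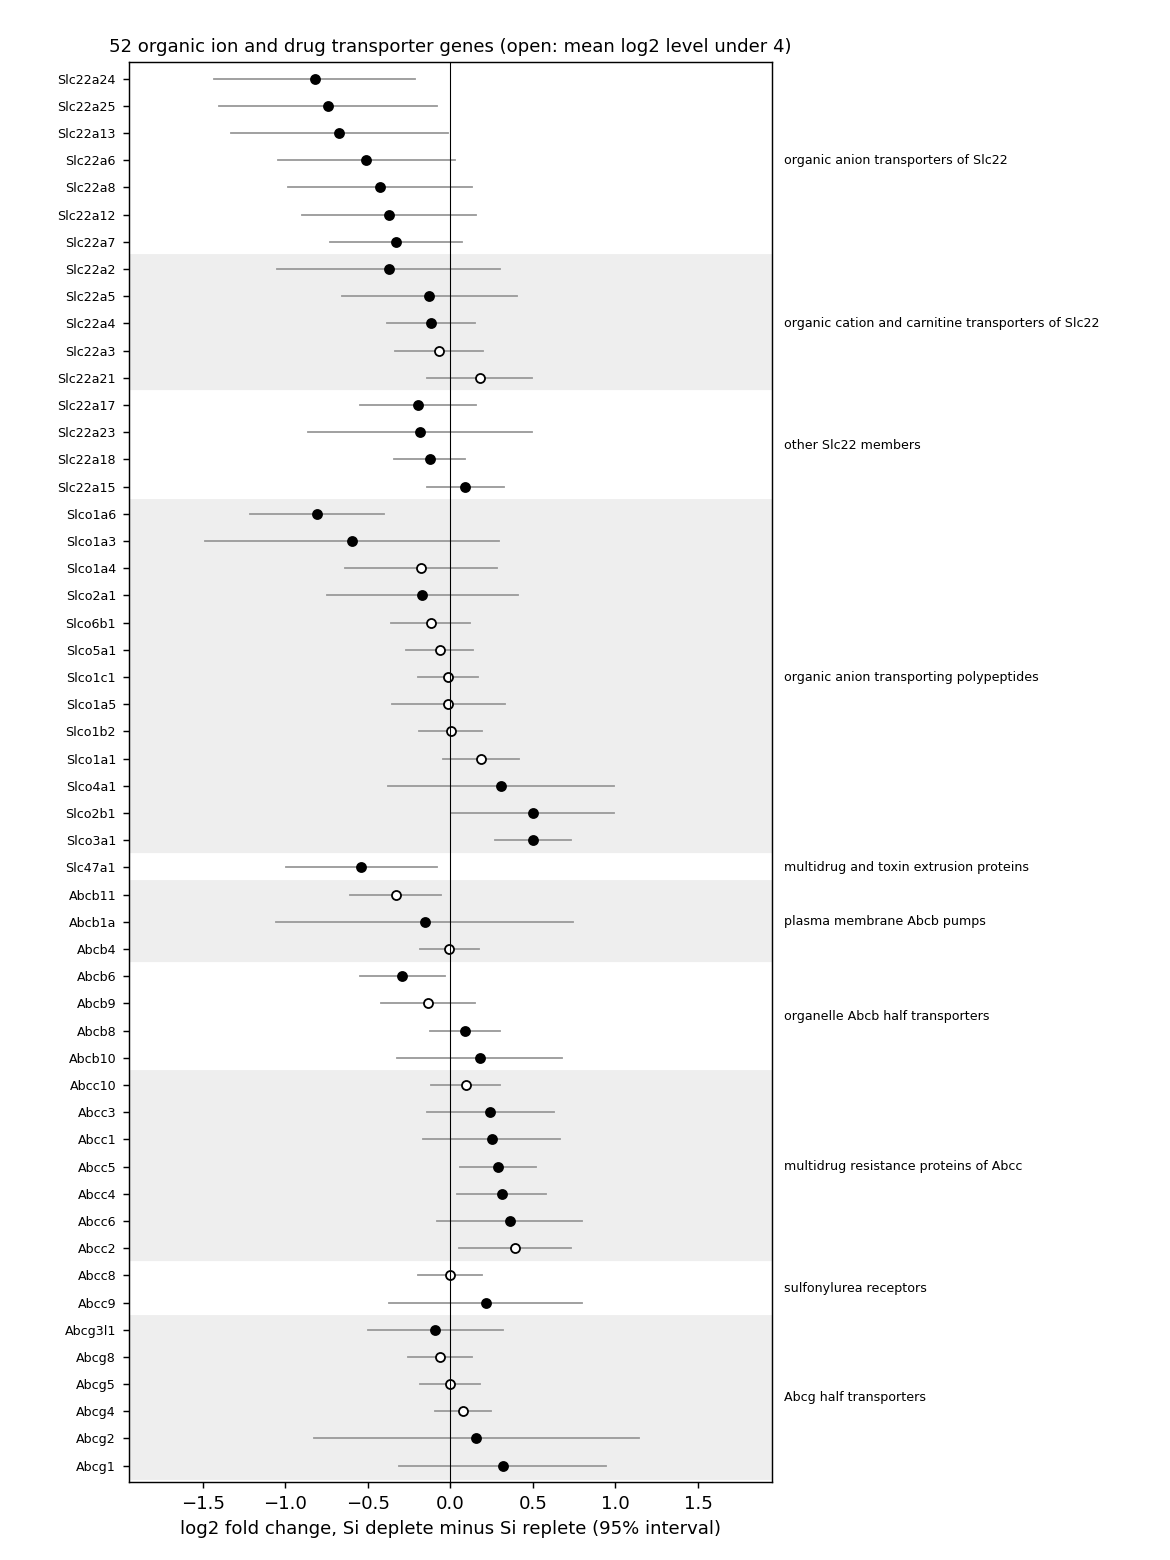
Log2 difference between Si deplete and Si replete kidneys (x axis, log2 units) for each of the 52 transporter genes (y axis), ordered by role, with 95% confidence intervals from limma (4 arrays per group). Open symbols mark the 18 dim genes. The 7 organic anion transporters all lie below 0 and the 7 Abcc multidrug resistance proteins all lie above 0, and no gene passed at an adjusted p under 0.1.

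The 7 organic anion transporters of the Slc22 family all had lower values in Si deplete kidneys, with a median log2 difference of -0.51 and a range of -0.82 to -0.33. Of these, 3 had an unadjusted limma p under 0.05 (against 7.95% of all genes with a lower level at that p) and 0 passed after adjustment. Among all 14217 genes, 7102 had a lower value. Si deplete replicate 1 was the lowest of the 8 arrays in all 7 genes. Without it the 7 values were still all lower, but their median was -0.25.

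Slc22a24, a relative of the anion transporters known for steroid conjugates, had log2 levels of 9.60, 10.37, 10.54 and 11.12 in the Si deplete kidneys and 11.41, 11.24, 11.28 and 10.99 in the Si replete kidneys. Si deplete replicate 4 lay within the Si replete range and the other 3 below it. The group means were 10.40 ± 0.63 and 11.23 ± 0.17 (SD, n = 4 each), a log2 difference of -0.82 ± 0.27 (SE, limma adjusted p = 0.236), or 0.565-fold, and of -0.55 without Si deplete replicate 1.

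Slc22a25, a less studied member of the same branch, had levels of 9.54, 10.65, 10.88 and 11.09 in the Si deplete kidneys against 11.39, 11.31, 11.32 and 11.11 in the Si replete kidneys. Every Si deplete kidney was below every Si replete kidney, though the gap between the nearest pair was small. The exact permutation test gave p = 0.0286, the smallest that 4 against 4 arrays allow (70 arrangements, 2-sided). Any gene without overlap has this p, so that it adds nothing to the absence of overlap, found in 11.9% of all genes. The log2 difference was -0.74 ± 0.29 (SE, limma adjusted p = 0.291), and -0.41 without Si deplete replicate 1. Slc22a13, an apical carrier of nicotinate and urate that is named here because of its values, had levels of 9.05, 10.35, 10.57 and 10.29 in the Si deplete and 10.86, 10.79, 10.75 and 10.56 in the Si replete kidneys. The groups overlapped by a hair at Si deplete replicate 3. Its log2 difference was -0.67 ± 0.29 (SE, limma adjusted p = 0.326), and -0.33 without Si deplete replicate 1.

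The groups overlapped in the best known renal anion uptake carriers. Slc22a6, or OAT1, the basolateral exchanger of p-aminohippurate and many acidic drugs, had levels of 9.11, 10.35, 10.16 and 9.91 in the Si deplete and 10.40, 10.24, 10.32 and 10.61 in the Si replete kidneys. Si deplete replicate 2 lay within the Si replete range and the other 3 below it, and the log2 difference was -0.51 with a 95% interval of -1.05 to 0.03 (limma adjusted p = 0.356). Slc22a8, or OAT3, which takes up bulkier anions and steroid conjugates at the same membrane, had levels of 10.37, 11.40, 11.64 and 11.05 against 11.48, 11.43, 11.41 and 11.85. The groups overlapped, with a log2 difference of -0.43 and an interval of -0.99 to 0.13, and a second probe set of Slc22a8 gave -0.90 ± 0.45 (SE, limma adjusted p = 0.391). Without Si deplete replicate 1 the differences of Slc22a6 and Slc22a8 were -0.25 and -0.18.

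Slc22a12, or URAT1, the apical urate exchanger, had levels of 10.45, 10.55, 11.08 and 11.31 in the Si deplete and 11.38, 11.08, 11.64 and 10.78 in the Si replete kidneys. Slc22a7, or OAT2, a carrier of urate and small anions, had levels of 10.60, 10.96, 11.23 and 11.28 against 11.53, 11.21, 11.59 and 11.04. The groups overlapped in both genes. The log2 differences were -0.37 for Slc22a12 (95% interval -0.90 to 0.15) and -0.33 for Slc22a7 (-0.73 to 0.07). Without Si deplete replicate 1 they were -0.24 and -0.19, and Slc22a12 was at -0.23 without Si replete replicate 3.

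Among the cation and carnitine transporters of the Slc22 family, 1 of 5 had a higher and 4 a lower value, with a median log2 difference of -0.12 and no unadjusted p under 0.05. Slc22a2, or OCT2, the basolateral uptake carrier of organic cations such as creatinine and metformin, had levels of 9.39, 10.34, 10.05 and 9.38 in the Si deplete and 10.12, 9.67, 9.95 and 10.92 in the Si replete kidneys. Both groups spread over more than a log2 unit or close to it, and the difference was -0.37 with an interval of -1.05 to 0.30 (limma adjusted p = 0.586). It was -0.12 without Si replete replicate 4 and -0.24 without Si deplete replicate 1 or 4. The carnitine carrier Slc22a5 differed by -0.13 (-0.66 to 0.40) and by 0.06 without Si deplete replicate 1. The ergothioneine carrier Slc22a4 differed by -0.12 (-0.38 to 0.15). The remaining pair, Slc22a3 and Slc22a21, were dim, with differences of -0.07 and 0.18. The 4 other Slc22 genes had differences of -0.20 for Slc22a17, -0.18 for Slc22a23, -0.13 for Slc22a18 and 0.09 for Slc22a15, each with a 95% interval that includes 0.

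Slc47a1, or MATE1, the brush border proton exchanger through which cations leave the cell, had levels of 10.15, 11.21, 11.08 and 10.94 in the Si deplete and 11.41, 11.32, 11.42 and 11.40 in the Si replete kidneys. The Si replete kidneys lay close together, and every Si deplete kidney was below them (exact permutation p = 0.0286). The log2 difference was -0.54 ± 0.20 (SE, limma adjusted p = 0.279), or 0.688-fold. Without Si deplete replicate 1 it was -0.31 ± 0.09 (limma adjusted p = 0.245).

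**Figure D2:**
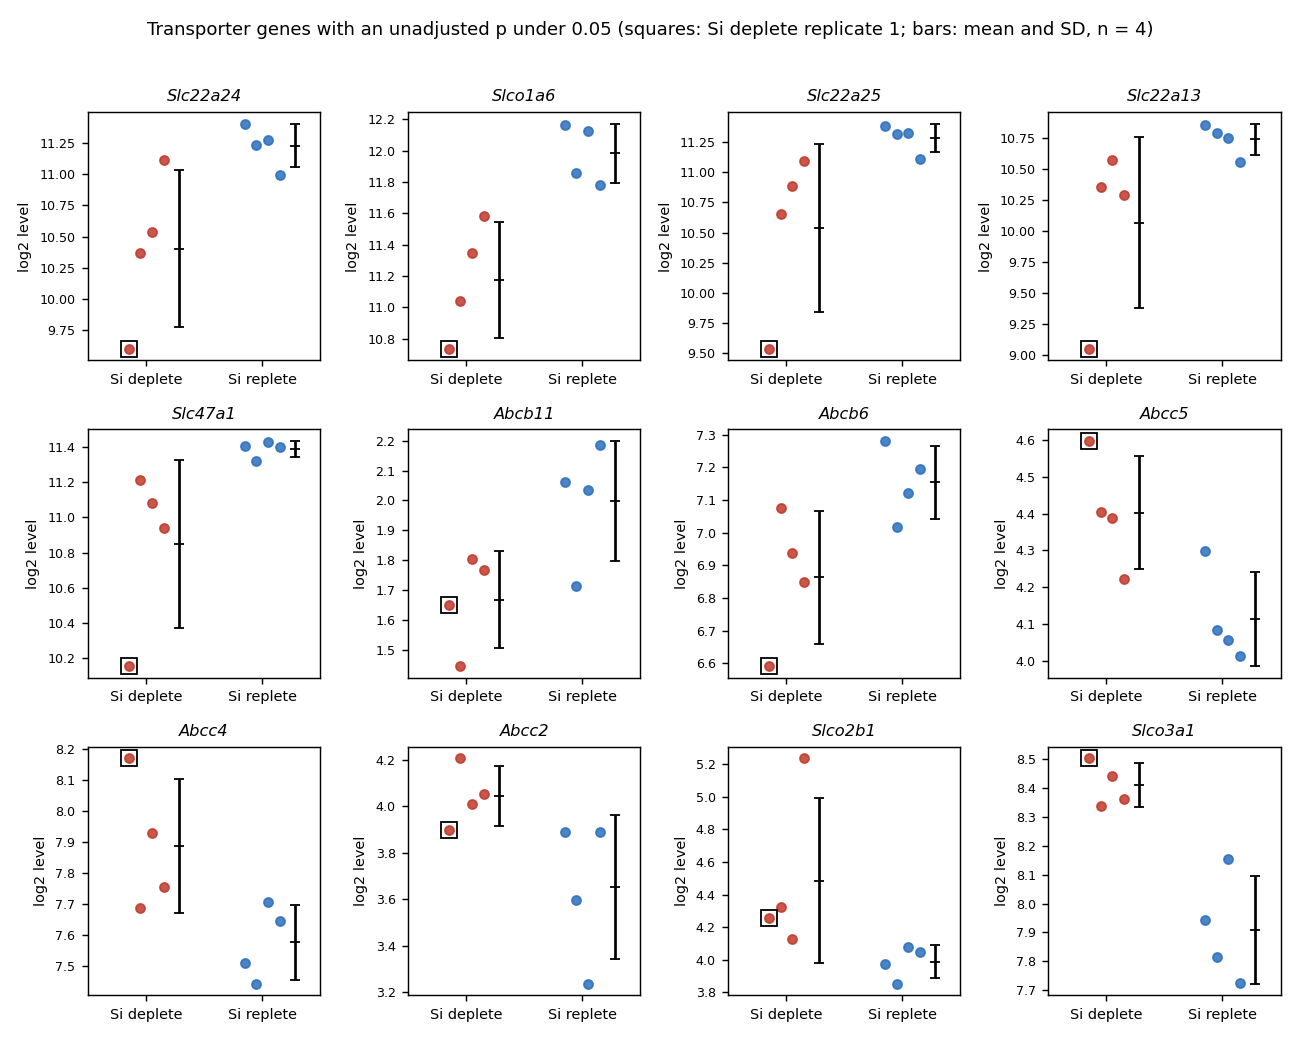
Log2 level (y axis) in each kidney of the 12 transporter genes with an unadjusted limma p under 0.05, by group (x axis, 4 arrays each), with group mean and SD; squares mark Si deplete replicate 1. That array is the lowest point in Slc22a24, Slc22a25, Slc22a13, Slc47a1, Abcb6 and Slco1a6, while in Slco3a1 all 4 Si deplete kidneys lie between 8.34 and 8.50, above the Si replete kidneys.

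The 13 organic anion transporting polypeptides had no common direction: 5 had higher and 8 lower values, the median log2 difference was -0.02, and 7 of them were dim. Slco3a1 and Slco1a6 had the smallest p-values of all 52 genes. Bases before a transcript start of each gene are shown here from the RefSeq promoter table (assembly GRCr8), beside those of Slc22a25 and Abcc4. These 4 genes were picked after their values were seen, to show both directions of difference and the contrast in CpG content described below. Each run holds the 250 bases before the start that the table uses, 5′ to 3′ on the gene's strand, with every CpG in capitals. That start is the outer end of the gene in Slco3a1, but lies inside the annotated gene in the other 3, by 1548 bases in Abcc4, 9279 in Slco1a6 and 94195 in Slc22a25. The windows are chr1:137797837-137798086 for Slco3a1, chr4:176839033-176839282 for Slco1a6, chr1:214862341-214862590 for Slc22a25 and chr15:102181365-102181614 for Abcc4, all on the minus strand.
Slco3a1: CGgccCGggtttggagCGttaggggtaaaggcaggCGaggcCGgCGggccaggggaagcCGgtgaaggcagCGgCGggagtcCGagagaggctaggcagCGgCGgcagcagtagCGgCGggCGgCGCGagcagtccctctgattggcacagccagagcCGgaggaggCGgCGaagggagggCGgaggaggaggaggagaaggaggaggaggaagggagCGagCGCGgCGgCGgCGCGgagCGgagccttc
Slco1a6: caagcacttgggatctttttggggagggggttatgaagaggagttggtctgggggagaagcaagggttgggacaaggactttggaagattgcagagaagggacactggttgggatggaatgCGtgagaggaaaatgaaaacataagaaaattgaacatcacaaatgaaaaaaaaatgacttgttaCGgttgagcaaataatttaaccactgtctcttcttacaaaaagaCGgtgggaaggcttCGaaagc
Slc22a25: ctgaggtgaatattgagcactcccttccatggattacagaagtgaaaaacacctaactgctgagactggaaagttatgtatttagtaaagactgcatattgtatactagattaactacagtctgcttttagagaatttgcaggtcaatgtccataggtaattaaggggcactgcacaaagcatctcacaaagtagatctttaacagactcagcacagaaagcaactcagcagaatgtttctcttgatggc
Abcc4: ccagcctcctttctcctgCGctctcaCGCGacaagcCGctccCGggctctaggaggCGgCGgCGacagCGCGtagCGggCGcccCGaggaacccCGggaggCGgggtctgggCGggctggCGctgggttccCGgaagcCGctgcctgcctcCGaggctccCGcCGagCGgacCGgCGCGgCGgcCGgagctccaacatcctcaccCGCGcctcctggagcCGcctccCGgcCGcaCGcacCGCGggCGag
The windows held 29 CpG for Slco3a1, 4 for Slco1a6, 0 for Slc22a25 and 37 for Abcc4, with GC contents of 73.2%, 43.2%, 39.2% and 77.6%. Other transporter genes with an unadjusted limma p under 0.05 did not all pair in this way. In the longer windows described below, Abcc2 and Slco2b1, with higher values, held 5 and 9 CpG. Abcb6, with lower values, held 24, while Slc22a24 and Slc22a13, also with lower values, held 1 each. Abcc5, Slc47a1 and Abcb11 had no window. Whether CpG content goes with direction was not tested.

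Slco3a1, a broadly expressed carrier of prostaglandins and thyroid hormone, had levels of 8.50, 8.34, 8.44 and 8.36 in the Si deplete and 7.94, 7.82, 8.15 and 7.72 in the Si replete kidneys. Every Si deplete kidney was above every Si replete kidney (exact permutation p = 0.0286), and Si deplete replicate 1 lay with the rest of its group. The means were 8.41 ± 0.08 and 7.91 ± 0.19 (SD, n = 4 each), a log2 difference of 0.50 ± 0.10 (SE, limma unadjusted p = 0.000847, adjusted p = 0.145), or 1.42-fold. Over 17 alternative settings it ran from 0.41 to 0.58 with adjusted p-values of 0.104 to 0.351. A second probe set of the gene gave 0.32 ± 0.15 (SE, limma adjusted p = 0.35).

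Slco1a6, a kidney member of the rat Slco1a branch, had levels of 10.73, 11.04, 11.34 and 11.58 in the Si deplete and 12.16, 11.86, 12.13 and 11.78 in the Si replete kidneys. The groups did not overlap (exact permutation p = 0.0286). The means were 11.17 ± 0.37 and 11.98 ± 0.19 (SD, n = 4 each), a log2 difference of -0.81 ± 0.18 (SE, limma unadjusted p = 0.00142, adjusted p = 0.156), or 0.571-fold, and of -0.66 without Si deplete replicate 1 (adjusted p = 0.181). Slco1a3, the kidney-specific carrier also known as OAT-K1 and named here because of its values, had levels of 8.51, 10.06, 10.26 and 10.63 in the Si deplete and 10.51, 10.50, 10.69 and 10.15 in the Si replete kidneys. Its difference of -0.60 rested on Si deplete replicate 1, without which it was -0.15. The Slco1a genes are close copies of one another, and how far their probes keep them apart was not tested.

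Slco2b1, a carrier of steroid sulfates, had low levels of 4.26, 4.32, 4.13 and 5.24 in the Si deplete and 3.97, 3.85, 4.08 and 4.05 in the Si replete kidneys. The groups did not overlap, but Si deplete replicate 4 stood well above the other 3 of its group, and a second, dim probe set differed by only 0.07. The log2 difference was 0.50 ± 0.22 (SE, limma adjusted p = 0.333), and over the alternative settings it ran from 0.25, without Si deplete replicate 4, to 0.62. Slco2a1, the prostaglandin transporter, differed by -0.17 (95% interval -0.75 to 0.41), and by 0.03 without Si deplete replicate 1. Slco4a1, a thyroid hormone carrier, differed by 0.31 ± 0.30 (SE, limma adjusted p = 0.674). The dim Slco5a1 and Slco6b1 differed by -0.07 and -0.12.

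Of the Abcb pumps of the plasma membrane, 2 of 3 were dim. Abcb1a, which encodes P-glycoprotein, had levels of 6.46, 5.67, 5.28 and 7.08 in the Si deplete and 7.002, 5.89, 6.39 and 5.82 in the Si replete kidneys. Both groups spanned more than a log2 unit, so that the difference of -0.16 had an interval of -1.06 to 0.75. Abcb11, the bile salt export pump of liver, was dim in all kidneys, at 1.44 to 1.80 against 1.71 to 2.18, and its difference was -0.33 ± 0.12 (SE, limma adjusted p = 0.271). Among the 4 Abcb genes of organelles, Abcb6, a porphyrin transporter of mitochondria and lysosomes, had levels of 6.59, 7.08, 6.94 and 6.85 against 7.28, 7.02, 7.12 and 7.19. Si deplete replicate 2 lay within the Si replete range, and the difference was -0.29 ± 0.11 (SE, limma adjusted p = 0.288). The mitochondrial Abcb8 and Abcb10 differed by 0.09 and 0.18, the latter by 0.37 without Si deplete replicate 1, and the dim Abcb9 and Abcb4 by -0.14 and -0.01.

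All 7 multidrug resistance proteins of the Abcc family had higher values in Si deplete kidneys, with a median log2 difference of 0.29 and a range of 0.09 to 0.39. Of these, 3 had an unadjusted limma p under 0.05 (against 10.5% of all genes with a higher level at that p) and 0 passed after adjustment. Among all 14217 genes, 7115 had a higher value. Without Si deplete replicate 1 the 7 values were again all higher, with a median of 0.21.

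Abcc4, or MRP4, the brush border pump for cyclic nucleotides, urate and anionic drugs, had levels of 8.17, 7.69, 7.93 and 7.76 in the Si deplete and 7.51, 7.44, 7.71 and 7.64 in the Si replete kidneys. The groups overlapped narrowly, at Si deplete replicate 2 and Si replete replicate 3. The means were 7.89 ± 0.22 and 7.58 ± 0.12 (SD, n = 4 each), a log2 difference of 0.31 ± 0.12 (SE, limma adjusted p = 0.282), or 1.24-fold. Abcc5, a pump for cyclic nucleotides, had levels of 4.60, 4.40, 4.39 and 4.22 against 4.30, 4.08, 4.06 and 4.01. Only Si deplete replicate 4 lay within the Si replete range, and the difference was 0.29 ± 0.10 (SE, limma adjusted p = 0.257).

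Abcc2, or MRP2, the brush border pump for glutathione and glucuronide conjugates, was dim, with levels of 3.90, 4.21, 4.01 and 4.06 in the Si deplete and 3.89, 3.60, 3.24 and 3.89 in the Si replete kidneys. The groups did not overlap, by a gap that is nearly nil, and the log2 difference was 0.39 ± 0.15 (SE, limma adjusted p = 0.283), and 0.25 without Si replete replicate 3. Abcc6, which mediates ATP release and is known for restraining soft tissue calcification, had levels of 5.53, 6.07, 6.22 and 5.34 against 5.44, 5.19, 5.57 and 5.53, a difference of 0.36 with an interval of -0.08 to 0.80, and of 0.21 without Si deplete replicate 3. Abcc3, a basolateral pump for conjugates, had levels of 8.07, 7.56, 7.22 and 7.31 against 7.25, 7.28, 7.42 and 7.25. Its difference of 0.24 rested on Si deplete replicate 1 and was 0.06 without it. Abcc1 differed by 0.25 ± 0.18 (SE, limma adjusted p = 0.553), and Abcc10, which was dim, by 0.09.

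The sulfonylurea receptor genes had differences of 0.21 for Abcc9 (95% interval -0.37 to 0.80), the subunit of vascular muscle channels (0.02 without Si deplete replicate 4), and -0.01 for Abcc8, which was dim. The 6 Abcg genes split evenly, 3 higher and 3 lower, with a median of 0.04. Abcg2, or BCRP, a brush border pump for urate and drugs, had the largest standard error of the 52 genes (0.44), with levels of 8.24, 7.78, 8.83 and 7.25 in the Si deplete and 7.72, 8.05, 6.85 and 8.85 in the Si replete kidneys. The groups overlapped over nearly their whole range, and the difference was 0.16 with an interval of -0.83 to 1.14. Abcg1, an exporter of cholesterol, differed by 0.32 (-0.31 to 0.95), and by 0.07 without Si replete replicate 3. The other 4, of which Abcg4, Abcg5 and Abcg8 were dim, differed by -0.09 to 0.08.

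**Figure D3:**
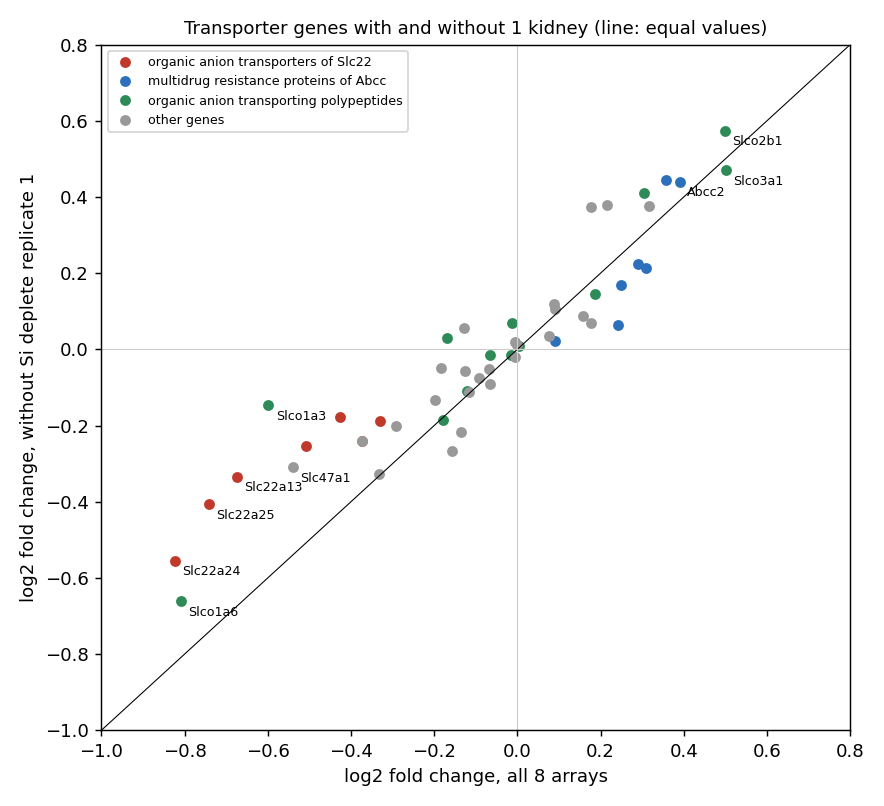
Log2 difference of each of the 52 transporter genes with all 8 arrays (x axis) and without Si deplete replicate 1 (y axis), in log2 units, with the line of equal values. The organic anion transporters and Slc47a1 move toward 0 without that array, while Slco3a1 stays at 0.47.

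The kidneys were also set side by side by role, as the mean deviation of a group of genes from each gene's mean over all 8 arrays. The 7 organic anion transporters averaged -1.01, -0.17, 0.04 and 0.03 in the Si deplete kidneys and 0.38, 0.21, 0.36 and 0.16 in the Si replete kidneys. The 7 Abcc multidrug resistance proteins averaged 0.29, 0.17, 0.13 and -0.04 against -0.02, -0.26, -0.15 and -0.11. The anion transporter averages of the groups did not overlap, with Si deplete replicate 1 far below the rest, and the Abcc averages overlapped only at Si deplete replicate 4.

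Markers of tubule injury had higher values in the Si deplete kidneys. Of 10 listed, 9 were measured, none was dim, and 8 had an unadjusted limma p under 0.05 with a higher level in Si deplete kidneys (against 10.5% of all genes), 0 of them after adjustment. Their mean deviations were 1.62, 0.41, 0.09 and 0.92 in the Si deplete and -0.19, -1.11, -1.17 and -0.57 in the Si replete kidneys, and their mean log2 level ran from 9.55 to 11.08 against 8.29 to 9.27. Si deplete replicate 1 was both the highest in injury markers and the lowest in anion transporters. Every Si deplete kidney was higher in injury markers and lower in anion transporters than every Si replete kidney. Within the groups the order was only partly inverse. Si deplete replicate 4, next highest in injury markers, had an anion transporter average of 0.03, against -0.17 in Si deplete replicate 2. Si replete replicate 1 was the highest of its group in both, while Si replete replicates 2, 3 and 4 had opposite orders in the averages. The 10 proximal tubule markers deviated by -0.37, 0.15, 0.13 and -0.05 against -0.03, 0.07, -0.10 and 0.19, with that same array the lowest and the other 7 overlapping. Of the 10, 9 had lower values, with a median log2 difference of -0.12, and Slc5a2, the glucose carrier of the early proximal tubule, had a higher one (0.70 ± 0.57, SE). Macrophage markers (5 of 5 measured, median difference 0.62) and markers of fibroblasts and mural cells (5 of 5, median 0.75) had higher values in Si deplete kidneys, with mean log2 levels of 6.38 to 7.19 against 5.90 to 6.74 and of 7.65 to 8.91 against 7.05 to 7.64. Lymphocyte markers (4 of 4, of which 3 were dim) had a median of 0.52. Podocyte markers (3 of 4 measured) had lower values, with a median of -0.57 and mean levels of 7.84 to 8.68 against 8.48 to 9.02. Of these markers, 2 had an unadjusted limma p under 0.05 (against 7.95% of all genes with a lower level) and none passed after adjustment. Collecting duct markers (5 of 5) had a median of -0.22. Medians for the loop of Henle, the distal tubule and the endothelium lay between -0.06 and -0.03. The part of injury and of other cell types in the transporter values was not tested.

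**Figure D4:**
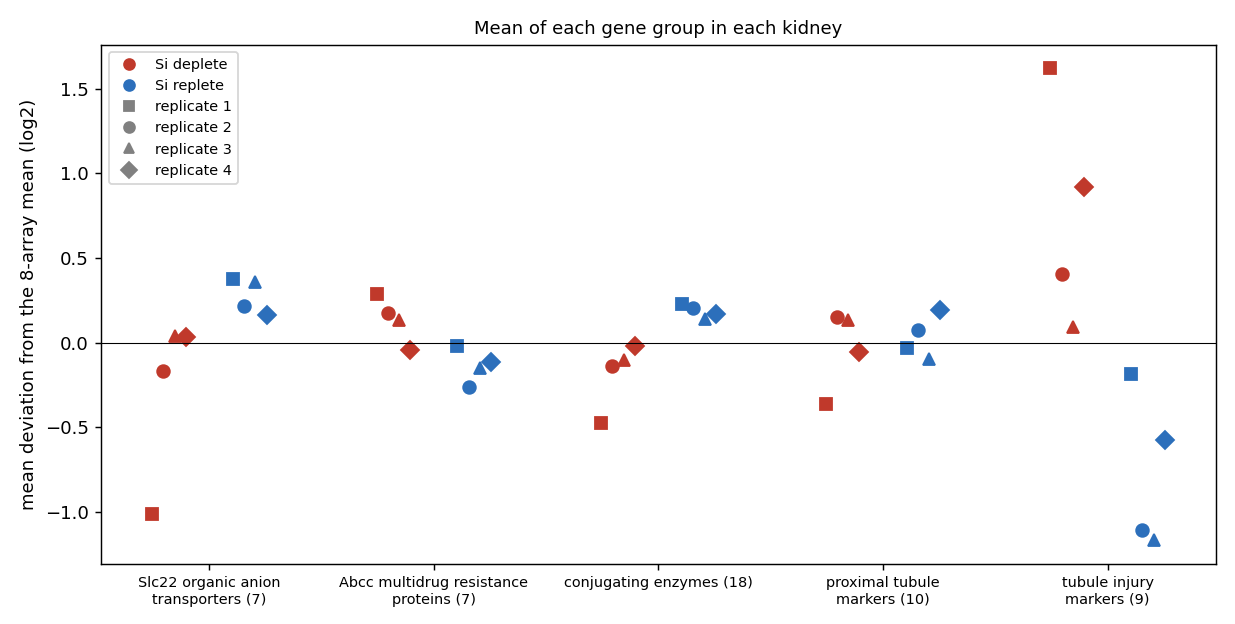
Mean deviation (y axis, log2 units, from each gene's mean over 8 arrays) in each kidney (points, coloured by diet group and shaped by replicate) for the gene groups on the x axis: 7 organic anion transporters, 7 Abcc multidrug resistance proteins, 18 conjugating enzymes, 10 proximal tubule markers and 9 injury markers. Acy3 and Ggt1 are in both the enzyme and the proximal tubule group. Si deplete replicate 1 is lowest for anion transporters (-1.01) and highest for injury markers (1.62).

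Genes that act beside the transporters were read from 4 lists, and none of their members passed limma at an adjusted p under 0.1. The list called conjugating enzymes holds Ugt, Sult and Nat genes, the glutathione genes Gclc, Gclm and Ggt1, and the acylase genes Acy1 and Acy3. Of these, Acy3 and Ggt1 are also among the proximal tubule markers. The list had lower values in 17 of 18 measured genes, 7 of them with an unadjusted limma p under 0.05 (against 7.95% of all genes), and a median log2 difference of -0.26. Among all 14217 genes, the median was 0.00 and 7102 had a lower value. Sult1b1, a sulfotransferase of thyroid hormones and phenols, had levels of 7.25, 8.00, 8.09 and 8.21 in the Si deplete and 9.17, 8.57, 8.79 and 9.36 in the Si replete kidneys, with no overlap and a difference of -1.09 ± 0.24 (SE, limma adjusted p = 0.156). Sult1c3, a relative, differed by -0.82 ± 0.22 (SE, limma adjusted p = 0.187), and the dim Ugt2b15, a glucuronosyltransferase of steroids, by -0.44 ± 0.09 (SE, limma adjusted p = 0.152). The enzymes' mean deviations were -0.48, -0.14, -0.10 and -0.02 against 0.23, 0.20, 0.14 and 0.17, with Si deplete replicate 1 again the lowest.

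Of 14 other carriers of peptides, nucleosides, urate and bile acids, 1 had a higher and 2 a lower level at an unadjusted limma p under 0.05. Among all genes the shares were 10.5% and 7.95%, and the counts of this list are too small to compare with them. Slc17a1, an apical phosphate and urate carrier, had levels of 9.56, 10.03, 10.11 and 10.18 against 10.48, 10.37, 10.21 and 10.32, with no overlap and a difference of -0.38 ± 0.14 (SE, limma adjusted p = 0.268). The nucleoside carrier Slc28a1 differed by -0.49 ± 0.18 (SE, limma adjusted p = 0.269) and the bile acid carrier Slc10a2 by 1.14 ± 0.43 (SE, limma adjusted p = 0.28). Without Si deplete replicate 1 the difference was 0.66 for Slc10a2 and -0.24 for Slc17a1. The 9 measured genes that supply the driving force and scaffold of anion exchange had a median of -0.14 and 0 with an unadjusted p under 0.05. The dicarboxylate carrier Slc13a2 differed by -0.43 ± 0.22 (SE, limma adjusted p = 0.397), and by -0.19 without Si deplete replicate 1. Slc13a3, the other dicarboxylate carrier of this list, differed by -0.14 ± 0.16 (SE, limma adjusted p = 0.72), and by -0.01 without that array. Among 13 measured regulators of transporter genes the median was 0.03. Cebpb, a transcription factor of acute phase responses, differed by 0.73 ± 0.24 (SE, limma adjusted p = 0.238) and by 0.48 without Si deplete replicate 1, the dim aryl hydrocarbon receptor gene Ahr by -0.63 ± 0.26 (SE, limma adjusted p = 0.311), and Nfe2l2, which drives antioxidant genes, by 0.14 ± 0.07 (SE, limma adjusted p = 0.35).

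Genes and roles were chosen by symbol family, so that shared position or promoter sequence within a family is not independent of the choice. In the RefSeq order of genes by start, Slc22a25, Slc22a8 and Slc22a6 are consecutive protein-coding genes on chromosome 1, with Slc22a24 separated from Slc22a25 by 3 others. The annotated interval of Slc22a25 contains that of Slc22a8 and overlaps that of Slc22a6. Slco1c1, Slco1b2, Slco1a4, Slco1a1, Slco1a3, Slco1a6 and Slco1a5 follow one another on chromosome 4. In that row Slco1a6 differed by -0.81 and Slco1a3 by -0.60, while Slco1a1, Slco1a4, Slco1a5, Slco1b2 and Slco1c1 were dim, with differences from -0.18 to 0.19.

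Promoter windows of 300 bases (250 before a transcript start and 50 after it) were matched in RefSeq (GRCr8) for 43 of the 52 genes. The start was the outer end of the annotated gene in 15 of them and lay inside it in 28, among them 4 of the 6 anion transporters and 3 of the 5 Abcc multidrug resistance proteins found. The windows of these 6 anion transporters held a median of 2 CpG (0 to 5), those of the 5 Abcc multidrug resistance proteins 16 (5 to 41), those of 11 transporting polypeptides 6 (1 to 38), and those of all 11701 genes 19 (0 to 66). Both strands were searched for motifs of regulators of these genes. The HNF1 motif was in 0 of the 43 windows (0.291% of all), and a direct repeat bound by HNF4 in 0 (0.0342% of all). CAAAGTCCA, another HNF4 form, was only in Abcb4 (0.367% of all). TGACNNNGC, the core of the antioxidant response element, was in 6 of 43, a share of 14.0% against 14.4% of all windows, and GCGTG, the core of the xenobiotic response element, in 19 of 43, a share of 44.2% against 45.8%. No matches of different motifs overlapped. Both shares were near those of all genes. Of genes described above, Abcc2 held the antioxidant core within chr1:252613882-252613911 (plus strand), after the start used. Slc22a13 held the xenobiotic core within chr8:127811743-127811772 (minus strand), before the start used. Both stretches of 30 bases are shown with the motif in capitals.
Abcc2: ctcactgggaTGACATAGCgtacaacattc
Slc22a13: agcagcaagcctGCGTGgtgttcctccact
A match of letters is a description and not a site of binding.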

How the data were processed

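RNA of 8 left kidneys was measured on Affymetrix rat genome arrays. The authors deposited log2 levels per probe set made by gcRMA (GCRMA 2.36.0 in the submitters' processing notes). Whether probe sets were filtered is not given in the sources used here. Of 31099 probe sets, 57 controls were left out, and the other 31042 were fitted with limma 3.58.1 (R 4.3.3, lmFit and eBayes), with Benjamini-Hochberg adjusted p-values and a threshold of 0.1. For single genes, all 70 arrangements of the arrays gave an exact 2-sided permutation p. The script was tested on simulated data. Genes were named where they passed, where groups did not overlap with an unadjusted p under 0.05, where they had the 2 smallest p-values of their role, or where they were known renal transporters (some genes of that list are not reported here), with up to 3 genes per pathway list. Members and lists were chosen with earlier results of these data known. Settings varied were the eBayes prior (trended or robust), array weights, probe sets with a mean under 4, array centring, quantile normalization, the replicate number as a block, the arrays used (each omitted once, and for pathway genes chosen after seeing the data), Storey's q-value (lambda 0.5), a stricter threshold (0.05) and averaging the probe sets of a gene. Limma p-values set a group difference against the spread between single kidneys, 4 per group, moderated over all probe sets. The number of kidneys limits the precision. Promoters were matched by Entrez ID (Python 3.11.15).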

Additional observations from a re-analysis of the deposited data

Results flagged for a closer look

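In 34 named genes, each group of 4 kidneys was searched for a kidney far from the other 3, and 3 of 68 groups had one; chance alone gives about 1 in 20 groups. Abcc3 was 7.42 in Si replete replicate 3, with the nearest of its group at 7.28. Slc22a18 was 11.28 in Si replete replicate 2, with the nearest at 11.43. Slc22a8 was 11.85 in Si replete replicate 4, with the nearest at 11.48.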

How the results depend on the processing

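No transporter gene passed under any alternative run. Of the 34 named genes, Abcc8, Slc22a5, Slco2a1, Abcb1a and Abcg2 reversed direction. Among the other members, Slc22a23 ran from -0.45 to 0.08 with an array left out. Abcb4, Abcg3l1, Abcg5, Slco1a5, Slco1b2 and Slco1c1 also changed sign with an array left out. Over all probe sets, limma called 35 higher and 12 lower. With Storey's q-value there were 121 and 51, with a threshold of 0.05 there were 0 and 0, and with dim probe sets left out 58 and 19. After subtraction of array medians, 19 were lower. Leaving out an array in turn gave 0 to 235 higher and 0 to 67 lower. The member count with a higher level at an unadjusted p under 0.05 was 5, and was 3 with dim probe sets left out, 3 after median subtraction, 3 after quantile normalization and 2 to 5 with an array left out. The lower count was 7 and ran from 2 to 10 with an array left out. Non-overlapping genes with higher levels, 3 in all, were 1 with the mean of probe sets and 3 to 5 with an array left out, and those with lower levels, also 3, were 5 after median subtraction and 3 to 6 with an array left out. The median of -0.07 ran from -0.06 to -0.01 with an array left out, and was -0.13 with dim probe sets left out and -0.12 after median subtraction, which moved the median of all genes to -0.06.

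The replicate block gave 90 probe sets called higher and 6 non-overlapping members in each direction, after replicate means were subtracted. That subtraction turns same-numbered kidneys into mirror values, so that groups separate whenever all differences within replicate numbers share a sign. The non-overlap count with the block is therefore not comparable with the count without it, and the share of all genes is not given here. The deviations of same-numbered kidneys correlated at 0.088, 0.090, 0.079 and -0.088, and the numbers were not taken as pairs.

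The log2 difference of Abcc8, -0.01 with all arrays, was 0.0032 with array weights and 0.0067 after quantile normalization, and ran from -0.058 (Si replete replicate 3 left out) to 0.042 (Si replete replicate 2). It was above 0 on omitting Si deplete replicate 1 or 3 or Si replete replicate 1 or 2. With an array left out, Slc22a5 ran from -0.26 to 0.056 (above 0 on omitting Si deplete replicate 1 or Si replete replicate 4), Slco2a1 from -0.33 to 0.031 (Si deplete replicate 1), Abcb1a from -0.48 to 0.12 (Si deplete replicate 3, or 0.09 for Si replete replicate 1), and Abcg2 from -0.18 (Si replete replicate 3, or -0.11 for Si deplete replicate 3) to 0.48. The cause was not tested. Of 15 members with several probe sets, 9 had the same sign in all and 6 did not (Abcc9, Abcg1, Slc22a23, Slco1b2, Slco2a1 and Slco5a1).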

Other observations

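Probe sets that the annotation pairs with several symbols were left out of the 52 genes. A probe set shared by Abcg3l4 and Abcg3l2, relatives of Abcg2 in rodents, had log2 levels of 8.31, 8.36, 8.26 and 8.21 in the Si deplete kidneys and 7.91, 8.21, 7.67 and 8.18 in the Si replete kidneys. The groups did not overlap, by a gap near nil, and the difference was 0.30 ± 0.12 (SE, limma adjusted p = 0.315). A probe set shared by Abcb1a and Abcb1b, the genes of P-glycoprotein in rat, had levels of 7.26, 6.77, 5.36 and 8.05 against 7.55, 6.29, 8.92 and 6.87. Its groups overlapped over most of their range, with a difference of -0.55 ± 0.65 (SE, limma adjusted p = 0.729).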
